A study of Mus musculus with 27 samples.

Results

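Abcg5, Abcg8, Abca1, Abcg1, Nr1h2, Nr1h3, Mylip, Lpcat3, Soat2 and Scarb1 are genes through which liver cells export, store or take up sterol, together with the receptors that sense it. They were taken as a listed set of 10 genes by symbol, and all 10 were found, each as 1 identifier, among the 51826 genes of the deposited tables. All 10 passed the filter on low counts. Values come from bulk RNA sequencing of whole liver from 27 wild-type BALB/c mice, an inbred strain, with each library under its own animal number. The labels give 4 nulliparous mice (NUL), which were never pregnant, and 3 mice at day 10 of lactation (LAC). Mice at 2, 4, 6 and 8 days after weaning, called involution days in the labels, numbered 3, 4, 6 and 3 (ID2, ID4, ID6 and ID8). A further 4 mice were taken 4 weeks after weaning (REG, for regressed). Mated females were bred at an age of 10 to 12 weeks with litters made even, the pups were removed at lactation day 10 to 14, and animals of the groups were of matched age. No treatment, transgene or deletion is given for any group.

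Sterol leaves the liver in bile through a transporter made of the proteins ABCG5 and ABCG8, which work only as a pair, and leaves cells for lipoproteins through ABCA1 and ABCG1. The liver X receptors, encoded by Nr1h3 (LXR alpha) and Nr1h2 (LXR beta), are nuclear receptors that bind oxysterols, pair with retinoid X receptors and switch on these transporters when sterol is plentiful. SREBP2, a factor released when membrane sterol is low, acts on the other side by driving cholesterol synthesis. In lactation the mother's lipid goes into milk, and weaning ends that outflow, so the stages were read beside the sterol synthesis genes.

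Abcg5 (ENSMUSG00000040505, chromosome 17, 84658234 to 84683011, minus strand) and Abcg8 (ENSMUSG00000024254, chromosome 17, 84676302 to 84700333, plus strand) stand head to head. By RefSeq starts on GRCm38.p6, 109 bases separate them. The Abcg8 gene model in GENCODE M21 begins further upstream, inside Abcg5, so the 2 gene models overlap. The estimated counts of both were whole numbers in all 27 libraries, with no fractional share. The use of strand is not given in the sources used here, so the assignment of reads in the overlap, and with it the level of each gene, stays uncertain. Those 109 bases are shown because both genes start from them, on the plus strand, with the letters AGATAA or their reverse complement TTATCT, the core that GATA factors bind, in capitals.
Abcg5 and Abcg8 between their starts, chr17:84683012-84683120: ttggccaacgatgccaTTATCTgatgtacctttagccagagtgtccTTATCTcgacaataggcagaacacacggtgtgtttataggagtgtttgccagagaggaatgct
The 2 copies lie 22 and 52 bases before the Abcg5 start and 93 and 63 bases before the Abcg8 start. 1 more copy lies outside these bases, 127 bases before the Abcg8 start and 12 bases inside Abcg5. On either strand these 6 letters occur in 11.2% of the 32851 RefSeq windows reaching from 250 bases before to 50 bases after a gene start. Windows were matched by symbol for 7 of the 10 genes. The same windows were searched, on both strands, for TGACC followed by any 5 bases and TAACC, a form of the paired site for a liver X receptor with its partner. Abca1 (ENSMUSG00000015243, chromosome 4, 53030787 to 53159895, minus strand) held it, and the sequence is shown because it held the match, which is in capitals.
Abca1 upstream, chr4:53159918-53159992, minus strand: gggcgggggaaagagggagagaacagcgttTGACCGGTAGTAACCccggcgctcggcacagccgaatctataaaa
The match begins 67 bases before the Abca1 start. On either strand 16 of the 32851 windows hold this form (0.0487%), and among the 7 genes with a window it was found for Abca1. That match is no test, because the form was chosen with the Abca1 sequence known. Other forms of the site were not searched, so windows without a match may hold them. The 2 patterns do not overlap each other in these sequences, both were chosen with the sequences known, and a match describes letters and not a bound site.

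Libraries held between 41120650 and 75664540 estimated reads, and CPM is the usual count scaled to library size. A gene was called when the adjusted p of edgeR's quasi-likelihood test, with Benjamini-Hochberg adjustment over all 16428 genes tested, was under 0.05. The labels do not say whether animals came from separate cages or litters. The tests took the animals as independent, and p-values could be too small if animals of a group shared a cage or litter. Hepatocyte markers were abundant in every group, with a summed TPM (a level scaled by transcript length and library) of 78446 at ID4 to 141907 at LAC as group means. Library ID2_31 stood apart in pancreas markers, with a summed TPM of 1676 over 10 genes against 12.6 and 13.8 in the other ID2 libraries, and calls that involve ID2 are therefore also given without it. Title numbers under 200 occurred in 2 of 3 ID2, 2 of 4 ID4 and all 3 ID8 animals and in no other group, so for ID8 this number range and the stage cannot be told apart. A score of 14 clock genes (their first component), used as a covariate, also differed between stages. It was 2.42, 3.27 and 8.45 (ID2_39) at ID2, -2.06 to 2.19 in LAC and -4.14 to 0.140 in NUL. At ID4 it ran from -0.925 to 3.04, at ID6 from -3.61 to -1.46 and at ID8 from 0.149 to 3.66. Its ranges did not overlap between ID2 and LAC or NUL, ID4 and ID6, or ID6 and ID8. There this covariate cannot fully separate clock from stage. Of the 14 clock genes, edgeR called 6 at ID2 against NUL and 4 from LAC to ID2, beside 3.24% and 16.1% of all genes. In bulk tissue, fewer cells of a type and less RNA per cell cannot be told apart.

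Across the 7 stages, 7 of the 10 genes differed (edgeR joint test), against 27% of all genes tested. The smallest adjusted p values were those of Abcg1 (8.46e-06), Scarb1 (1.34e-04), Soat2 (6.17e-04) and Mylip (0.00197). Abcg8 (0.0173), Abcg5 (0.0292) and Lpcat3 (0.0324) passed more narrowly, and Nr1h3 (0.0917), Abca1 (0.107) and Nr1h2 (0.162) did not pass in the same edgeR test. The joint count ranged from 4 to 8 when single animals were left out, and the 4 came without LAC_240. Against NUL, 2 of the 10 genes were called at LAC, where 11.2% of all genes were, and 2 at ID4, where 4.25% were. None was called at ID2, ID6, ID8 or REG, where 3.24%, 1.08%, 0.499% and 0.0852% of all genes were called by edgeR. The counts of the 10 genes at an unadjusted edgeR p under 0.05 were 1, 3, 2 and 1 at these 4 stages, and DESeq2 called 1 at ID6 and 0 at the other 3.

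**Figure D1:**
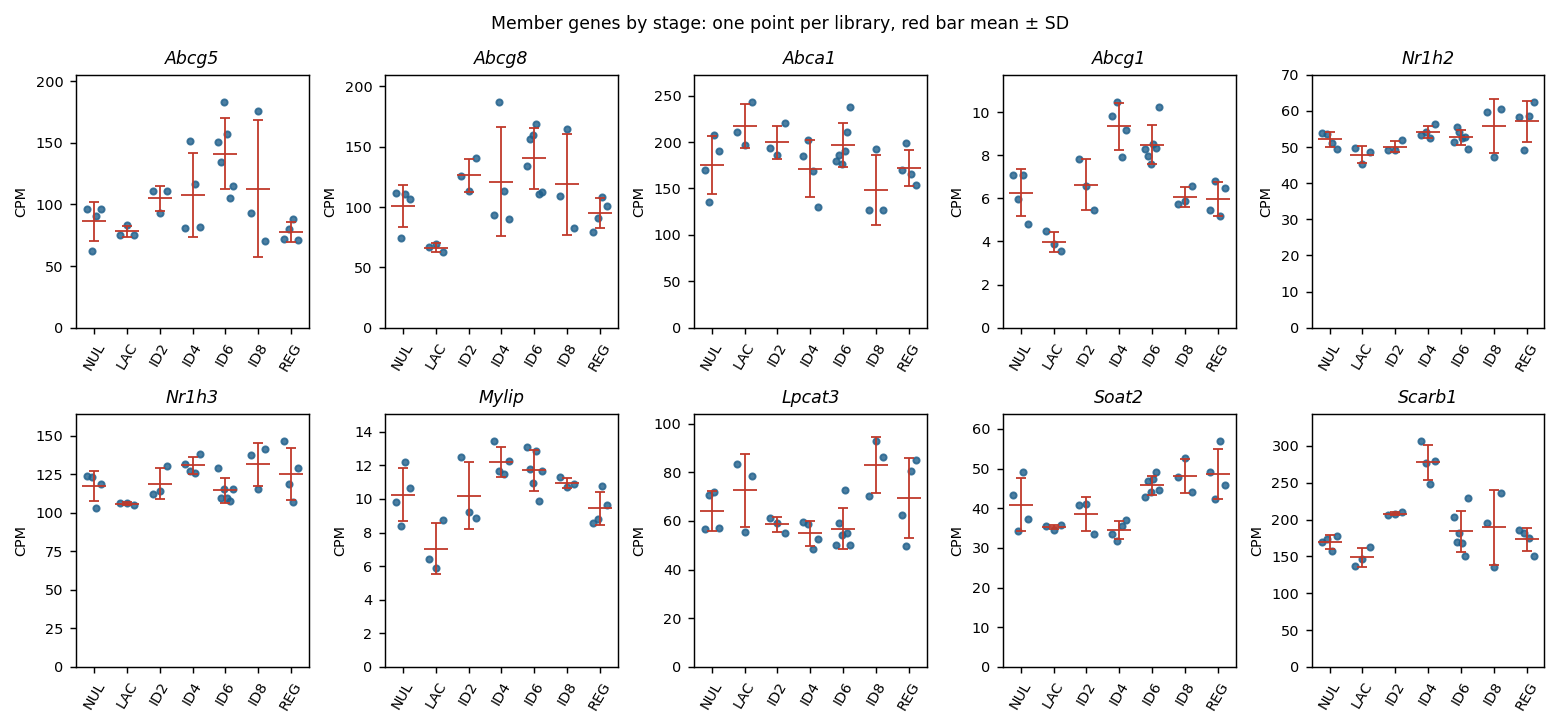
Scaled counts (CPM, vertical axis from 0) of the 10 genes at 7 stages (horizontal axis), with 1 point per library and red bars for mean ± SD. All 4 ID4 libraries lay above the 23 others for Scarb1, and all 3 LAC libraries lay below the 24 others for Abcg1 and Abcg8.

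The transporter pair of bile export had lower Abcg8 in lactation and higher Abcg8 again 2 days after weaning. Abcg8 was at 67.0, 69.5 and 62.6 CPM in the LAC libraries. In NUL it was at 111, 74.5, 111 and 106 CPM, and at ID2 at 125, 113 and 140 CPM. The 3 LAC libraries lay below all 24 others. From LAC to ID2 Abcg8 rose by 0.93 on the log2 scale (SE 0.25, edgeR adjusted p = 0.0145), which is 1.90-fold, in 3 against 3 animals without overlap. Without ID2_31 the log2 fold change was 1.0 (edgeR adjusted p = 0.0251). The call was lost without ID2_39 (edgeR adjusted p = 0.0564), with a title number covariate (0.114) and with a covariate for the clock genes (0.189). LAC against NUL gave a log2 fold change of -0.60 (SE 0.24) without overlap, which edgeR did not call in the fit of all groups (adjusted p = 0.110). It was called by edgeR with the 2 groups alone (adjusted p = 0.0208) and by DESeq2 (adjusted p = 0.0428).

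Abcg5 was not called in lactation or at the step to ID2, and its difference from Abcg8 was not tested. It was at 75.3, 83.4 and 75.5 CPM in LAC and at 95.9, 62.5, 90.3 and 96.1 CPM in NUL, and the groups overlapped (log2 fold change -0.14, SE 0.25, edgeR adjusted p = 0.798). At ID2 its libraries, at 111, 93.3 and 111 CPM, lay above the LAC libraries, with a log2 fold change of 0.43 (SE 0.27) that edgeR called with the 2 groups alone (adjusted p = 0.00798) and not in the fit of all groups (0.315). Its highest group mean came at ID6, 141 ± 28.7 CPM (SD, n = 6), with libraries from 106 to 183 CPM and a median of 143. The 6 ID6 libraries lay above the 4 NUL libraries, and the log2 fold change of 0.71 (SE 0.22) was not called (edgeR adjusted p = 0.125). In ID8 the spread was wide for both genes, with ID8_14 at 176 CPM for Abcg5 and 165 CPM for Abcg8 against 69.9 to 93.0 and 83.0 to 109 CPM in the other ID8 libraries. In ID4 a single library was likewise high for both, ID4_15 at 152 and 187 CPM against 80.6 to 117 and 90.5 to 113 CPM in the others. ID4_15 also had a summed TPM of pancreas markers of 121.9, against 14.8 to 17.3 in the other ID4 libraries, and its part in these values was not tested.

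The pair moved together from library to library. Over the 27 libraries the log2 CPM of Abcg5 and of Abcg8 had a Pearson r of 0.888, and each gene was the most alike of all 10550 candidate genes to the other. This is a description over animals that share stage and sequencing, not a test. Next after the partner came Ptgs1 (0.782) and Tmem150a (0.778) for Abcg5, and Rab8b (0.797) and Lfng (0.797) for Abcg8. By level per length, and with the doubt over the overlap, the Abcg5 to Abcg8 ratio of TPM was 1.19 ± 0.0336 in NUL (SD, n = 4), 1.57 ± 0.0495 in LAC (n = 3) and 1.13 ± 0.0518 at ID2 (n = 3). The LAC ratios, from 1.52 to 1.62, lay above those of NUL, from 1.14 to 1.22, and the ratio was not tested. At ID6 it ranged from 1.22 to 1.60 and at REG from 0.955 to 1.28.

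Of the 2 transporters that load cellular sterol onto lipoproteins, Abcg1 was called in lactation and Abca1 was not, and the difference between them was not tested. Abcg1 (ENSMUSG00000024030, chromosome 17, 31057675 to 31117988), which passes sterol to HDL and is known from macrophages and endothelium as well as hepatocytes, had low levels, with group means of 1.34 to 3.27 TPM. It was at 7.10, 5.99, 7.10 and 4.82 CPM in NUL and at 4.47, 3.87 and 3.55 CPM in LAC, where all 3 libraries lay below the 24 others. In LAC it fell by 0.66 on the log2 scale (SE 0.15, edgeR adjusted p = 0.00442). At ID2 it was at 7.84, 6.59 and 5.46 CPM, and from LAC to ID2 it rose by 0.74 on the log2 scale (SE 0.16, edgeR adjusted p = 0.00222). Without ID2_31 that log2 fold change was 0.75 (edgeR adjusted p = 0.00747). At the step from LAC to ID2, 4 of the 10 genes were called, all higher, against 16.1% of all genes.

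Abcg1 was highest at ID4, with 9.81, 10.5, 7.90 and 9.19 CPM, each above every NUL library. Against NUL it rose by 0.58 on the log2 scale (SE 0.14, edgeR adjusted p = 0.0113). The edgeR adjusted p was 0.0575 without NUL_227. At ID6 the libraries ran from 7.61 to 10.2 CPM with a median of 8.32, again above all NUL libraries, at a log2 fold change of 0.44 (SE 0.12) that edgeR did not call (adjusted p = 0.0768). DESeq2 called it (adjusted p = 0.0277). By ID8 Abcg1 was at 5.72, 5.86 and 6.57 CPM, below all 6 ID6 libraries, and from ID6 it fell by 0.49 on the log2 scale (SE 0.14, edgeR adjusted p = 0.0420). With a title number covariate that step had a log2 fold change of -0.48 (edgeR adjusted p = 0.272), and with any 1 of 6 animals left out the adjusted p was over 0.05, up to 0.172 without ID8_101b, at values between -0.43 and -0.55. At the ID6 to ID8 step 2 of the 10 genes were called, against 4.12% of all genes. The lowest group mean of Abcg1, LAC, did not overlap with the next, REG. The other neighbours in the order of means overlapped.

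Abca1, which builds new HDL from cellular sterol and phospholipid, was not called in any of the 11 comparisons without a covariate. Its LAC libraries stood at 211.1, 197 and 244 CPM, against 170, 135, 208 and 190 CPM in NUL. The groups overlapped, and the log2 fold change was 0.31 (SE 0.15, edgeR adjusted p = 0.227). The ID8 libraries were at 126, 192 and 127 CPM and the ID6 libraries at 176 to 237 CPM with a median of 188. For that step edgeR gave -0.41 on the log2 scale (SE 0.15, adjusted p = 0.107). Without ID8_14 it was -0.64 (edgeR adjusted p = 0.0163), and the joint test of Abca1 then gave 0.0114. With the clock covariate Abca1 was called at 3 steps, LAC to ID2 (log2 fold change -0.51, edgeR adjusted p = 0.0421), ID4 to ID6 (0.45, adjusted p = 0.0203) and ID6 to ID8 (-0.77, adjusted p = 0.00506), where the values without it were -0.12, 0.20 and -0.41. The joint edgeR adjusted p of Abca1 was then 0.00275. At each of these 3 steps the clock scores of the 2 groups did not overlap, so clock and stage cannot be fully separated there. The TPM ratio of Abca1 to Abcg1 was 10.6 ± 3.72 in NUL (SD, n = 4), from 7.78 to 16.0, and 21.4 ± 5.08 in LAC (SD, n = 3), from 16.5 to 26.6. In ID4 it was 6.47 ± 0.807 (n = 4), from 5.34 to 7.13.

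The receptors themselves moved little. Nr1h2 (ENSMUSG00000060601, chromosome 7, 44549616 to 44553951) stayed within 45.4 to 62.6 CPM over the 27 libraries. Its log2 fold changes against NUL were between -0.12 in LAC and 0.13 at REG, and the approximate 95% interval of the REG value ran from -0.01 to 0.28. Nr1h3 (ENSMUSG00000002108, chromosome 2, 91184061 to 91202834) lay within 103 to 147 CPM, and its log2 fold changes against NUL were between -0.15 in LAC and 0.16 at ID8. The interval of that LAC value ran from -0.33 to 0.04. No comparison of either receptor was called by edgeR, where the smallest adjusted p was 0.142 (Nr1h3, ID4 to ID6). The 4 ID4 libraries of Nr1h3, at 132, 127, 126 and 138 CPM, lay above the 4 NUL libraries, at 124, 123, 103 and 119 CPM (log2 fold change 0.16, edgeR adjusted p = 0.349). Per length, Nr1h3 was the more abundant receptor RNA in every library, with a TPM ratio to Nr1h2 of 1.78 to 2.67.

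Among 11 genes for the receptors' partners, coactivators and corepressors, Rxra, the retinoid X receptor of hepatocytes, was the 1 gene called between neighbouring stages, at 2 steps where 16.1% and 8.53% of all genes were called. Rxra rose by 0.37 on the log2 scale from LAC to ID2 (SE 0.10, edgeR adjusted p = 0.0149), and by 0.42 without ID2_31 (adjusted p = 0.0191). From ID4 to ID6 Rxra fell by 0.34 on the log2 scale (SE 0.08, edgeR adjusted p = 0.0101). Against NUL edgeR called none of the 11 at any stage, with 0 to 3 at an unadjusted p under 0.05, and DESeq2 called 1 at ID4 and 1 at ID8. Of 8 genes whose enzymes make or clear oxysterols and bile acid precursors, 6 were tested, and Ch25h and Sult2b1 had a mean under 0.1 TPM. In LAC 2 of the 6 rose and 1 fell against NUL, beside 11.2% of all genes called. Cyp39a1, a hydroxylase of oxysterols, rose by 0.91 on the log2 scale (SE 0.24, edgeR adjusted p = 0.0154), and Hsd3b7, a later enzyme of bile acid synthesis, fell by 0.55 (SE 0.10, edgeR adjusted p = 8.25e-04). At ID2 Cyp27a1, a sterol hydroxylase, was lower than in NUL and fell by 0.49 on the log2 scale (SE 0.13, edgeR adjusted p = 0.0323), and without ID2_31 by 0.56, which was not called (adjusted p = 0.0526).

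**Figure D2:**
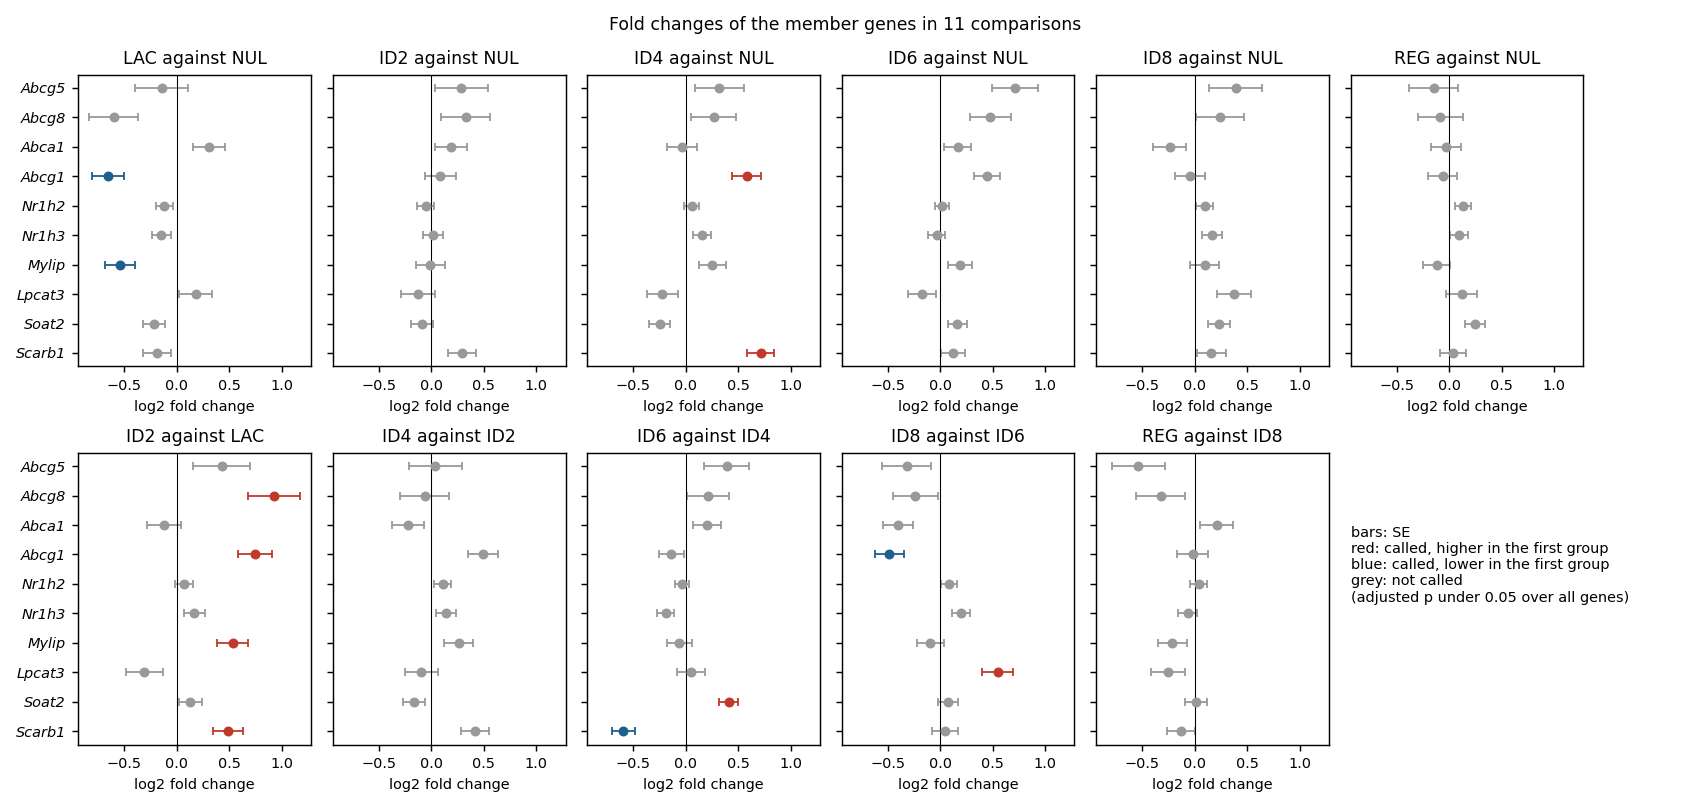
Log2 fold changes (horizontal axes) of the 10 genes in 11 comparisons, with the point for the edgeR estimate and bars for its SE. Red and blue mark called genes, higher and lower in the first-named group. The ID2 against LAC panel holds 4 called genes, and the ID2, ID6, ID8 and REG panels against NUL hold none.

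Of the 2 receptor targets that act on lipid uptake and membranes, Mylip had the lower value in lactation. Mylip (ENSMUSG00000038175, chromosome 13, 45389742 to 45412022) encodes a ubiquitin ligase, also called IDOL, that sends the LDL receptor for degradation. It was at 6.45, 5.90 and 8.78 CPM in LAC and at 9.81, 8.40, 12.2 and 10.6 CPM in NUL, so LAC_240 lay above NUL_221. In LAC it fell by 0.54 on the log2 scale (SE 0.14, edgeR adjusted p = 0.0116), and the edgeR adjusted p was 0.0986 without LAC_213, 0.0652 without LAC_200, 0.0520 without NUL_226 and 0.0720 with the 2 groups alone. At ID2 Mylip was at 12.5, 9.24 and 8.86 CPM, above all LAC libraries. From LAC it rose by 0.53 on the log2 scale (SE 0.15, edgeR adjusted p = 0.0152), a call lost without ID2_224 (edgeR adjusted p = 0.138), LAC_200 (0.0672) or LAC_213 (0.108), with the clock covariate (0.0674) and with the 2 groups alone (0.0633). Without ID2_31 it was 0.60 (edgeR adjusted p = 0.0190). After that its group means lay between 9.44 and 12.2 CPM with overlapping neighbours.

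Lpcat3 (ENSMUSG00000004270, chromosome 6, 124663027 to 124704418) encodes an enzyme that puts polyunsaturated chains into membrane phospholipids. It overlaps Emg1 on the other strand and its estimated counts were fractional in all 27 libraries, so its values are uncertain. Counts of the other 9 genes were whole. The ID8 libraries stood at 70.3, 92.9 and 86.1 CPM, and the ID6 libraries at 49.9 to 72.7 CPM with a median of 54.5. From ID6 to ID8 Lpcat3 rose by 0.55 on the log2 scale (SE 0.15, edgeR adjusted p = 0.0338), with 1 ID6 library, ID6_218, above the lowest ID8 library. The edgeR adjusted p was 0.351 with a title number covariate, and over 0.05 with any 1 of 7 of the 9 animals left out, up to 0.129 without ID8_98b.

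Soat2 (ENSMUSG00000023045, chromosome 15, 102150526 to 102163469) encodes the enzyme that joins cholesterol to fatty acids for storage and for lipoproteins. It was at 33.5, 31.8, 35.5 and 37.0 CPM at ID4. At ID6 the 6 libraries ran from 42.8 to 49.2 CPM with a median of 45.7, all above the ID4 libraries. Soat2 rose by 0.41 on the log2 scale (SE 0.09, edgeR adjusted p = 0.00493), in each fit with 1 animal left out as well, while with a title number covariate the edgeR adjusted p was 0.0593. The means then stayed at 48.2 ± 4.26 CPM at ID8 (SD, n = 3) and 48.6 ± 6.22 CPM at REG (n = 4). Against NUL, where the libraries spread from 34.2 to 49.1 CPM, no stage was called for Soat2, and the smallest edgeR adjusted p was 0.152 at ID4. At the ID4 to ID6 step 2 of the 10 genes were called, against 8.53% of all genes. None was called from ID2 to ID4, where 1.49% of all genes were called by edgeR, 2 of the 10 had an unadjusted p under 0.05 and DESeq2 called 1. From ID8 to REG none was called, against 0.0487% of all genes in edgeR, with 1 at an unadjusted p under 0.05 and 0 by DESeq2.

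Scarb1 (ENSMUSG00000037936, chromosome 5, 125277087 to 125341094), the receptor SR-BI through which hepatocytes take cholesteryl ester out of HDL, peaked 4 days after weaning. It was at 307, 277, 248 and 280 CPM at ID4, and all 4 libraries lay above the 23 others. NUL stood at 169, 173, 157 and 178 CPM, LAC at 137, 147 and 163 CPM, and ID2 at 206, 208 and 210.5 CPM. Against NUL, Scarb1 rose by 0.71 on the log2 scale at ID4 (SE 0.12, edgeR adjusted p = 9.94e-04), which is 1.64-fold. The 2 ID4 libraries with title numbers over 200, as in all NUL animals, were at 248 and 280 CPM. With a title number covariate the log2 fold change was 0.66 (edgeR adjusted p = 0.0101).

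By ID6 Scarb1 was back at 151 to 230 CPM with a median of 176. From ID4 it fell by 0.60 on the log2 scale (SE 0.11, edgeR adjusted p = 0.00147). These ID4 calls stood in each fit with 1 animal left out and in the 8 other settings. Erythroid markers moved at the same step: 5 of 5 tested fell from ID4 to ID6 and 4 of 5 from ID6 to ID8, beside 8.53% and 4.12% of all genes called. Their summed TPM was 1144 to 2408 in NUL, 1218 to 3251 at ID4, 197 to 847 at ID6 and 51.9 to 106.9 at ID8. Their part in the Scarb1 and Soat2 steps from ID4 to ID6, and in the Abcg1 and Lpcat3 steps from ID6 to ID8, was not tested. The step from LAC to ID2, a rise of 0.49 on the log2 scale (SE 0.14, edgeR adjusted p = 0.0215), was 0.49 without ID2_31 and then not called (edgeR adjusted p = 0.0532). The call was also lost without ID2_39 (adjusted p = 0.0571), LAC_200 (0.0876) or LAC_213 (0.0712) in edgeR, and with the title number covariate (0.130) or the clock covariate (0.0707), although the 2 groups did not overlap. The ID2 and ID4 libraries did not overlap either, with an edgeR log2 difference of 0.42 (SE 0.14, adjusted p = 0.125), and of 0.42 without ID2_31 (adjusted p = 0.299). At ID8 the 3 libraries spread from 136 to 237 CPM.

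Genes most alike to Scarb1 over the 27 libraries, by Pearson r of log2 CPM, were Hrg (0.884), Cyp2d26 (0.870) and Lcat (0.858), the last encoding the plasma enzyme that esterifies cholesterol on HDL. Lcat fell by 0.34 on the log2 scale from ID4 to ID6 (SE 0.10, edgeR adjusted p = 0.0255). Of 22 tested genes of HDL and sterol traffic, 2 rose and 1 fell at ID4 against NUL, where 4.25% of all genes were called. Lipc, the hepatic lipase that trims HDL, rose by 0.50 on the log2 scale (SE 0.10, edgeR adjusted p = 0.00207), Stard5, a sterol carrier, rose by 0.28 (SE 0.08, edgeR adjusted p = 0.0300), and Lipg, endothelial lipase, fell by 1.64 (SE 0.28, edgeR adjusted p = 0.00115). In LAC 2 of the 22 rose and 1 fell, beside 11.2% of all genes called, and the 1 that fell was Soat1, the esterifying enzyme of macrophages, which fell by 0.75 on the log2 scale (SE 0.15, edgeR adjusted p = 0.00109). Of 9 genes for bile transporters and regulators of bile acid synthesis and transport, 1 was called in LAC against NUL, where 11.2% of all genes were. It was Abcb11, the bile salt export pump, which rose by 0.35 on the log2 scale (SE 0.11, edgeR adjusted p = 0.0399). Abcb4, the phospholipid flippase, fell by 0.49 from ID4 to ID6 (SE 0.14, edgeR adjusted p = 0.0241).

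Sterol synthesis genes ran the other way from Abcg1 in LAC and at ID4. Of 26 genes for cholesterol synthesis and SREBP2 targets, 18 rose and 0 fell in LAC against NUL, where 11.2% of all genes were called, with a median log2 fold change of 0.76 against -0.01 over all genes. Mvd (1.89, SE 0.35, edgeR adjusted p = 0.00151) and Lss (1.39, SE 0.19, edgeR adjusted p = 3.66e-05) were among those with the largest log2 fold changes. At ID2 0 of the 26 were called against NUL by edgeR or DESeq2, and 3 had an unadjusted edgeR p under 0.05. At ID4 25 fell and 0 rose, beside 4.25% of all genes called, with a median of -1.41. Sqle, the squalene epoxidase, fell by 3.60 on the log2 scale (SE 0.37, edgeR adjusted p = 6.98e-06) and Fdps by 3.15 (SE 0.30, edgeR adjusted p = 1.67e-06). At ID6 18 fell, beside 1.08% of all genes called, with a median of -0.94. At ID8 3 fell, beside 0.499%, and at REG 0 were called by edgeR or DESeq2, with 2 at an unadjusted edgeR p under 0.05. The medians of the 10 export, receptor and uptake genes were -0.17 in LAC, 0.05 at ID2 and 0.20 at ID4. They were 0.16 at ID6, 0.16 at ID8 and 0.00 at REG. At ID8 the median of the 26 synthesis genes was -0.25. These stages share the NUL libraries, so the values stand side by side with no test between the lists.

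**Figure D3:**
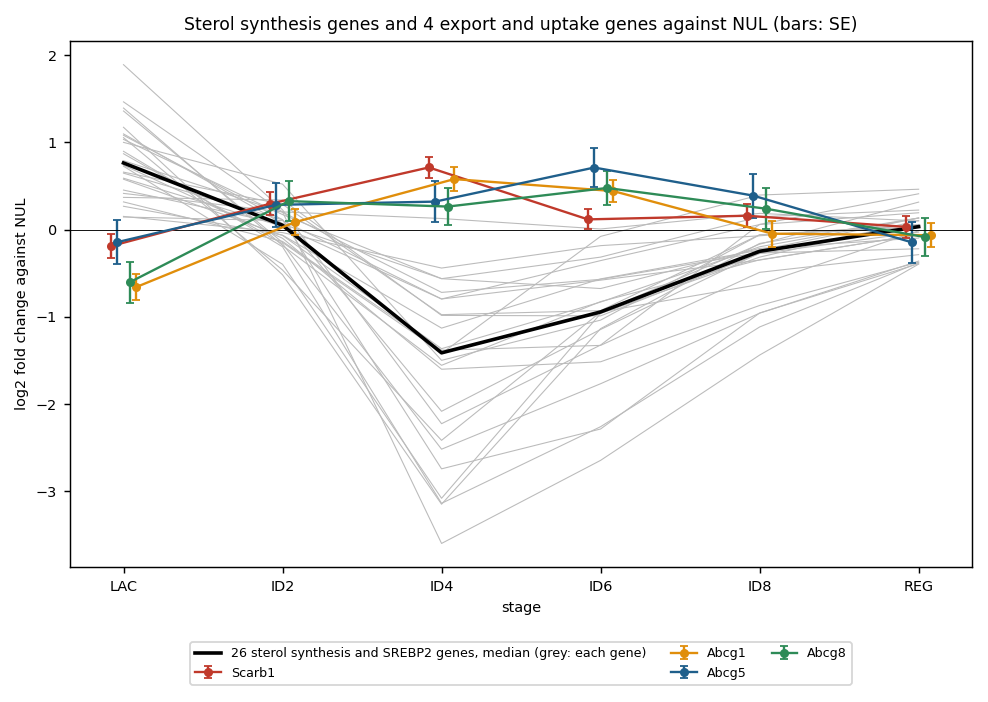
Log2 fold change against NUL (vertical axis) at 6 stages (horizontal axis) for 26 sterol synthesis and SREBP2 genes (grey lines, black median) and for Scarb1, Abcg1, Abcg5 and Abcg8 (coloured points, bars for SE). The black median goes from 0.76 in LAC to -1.41 at ID4, where Scarb1 and Abcg1 reach 0.71 and 0.58.

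Other known receptor targets did not share 1 course. Of 13 genes, 6 rose in LAC, beside 11.2% of all genes called in either direction, among them Lpl, lipoprotein lipase, by 3.02 on the log2 scale (SE 0.31, edgeR adjusted p = 6.52e-06), and Scd1, which desaturates fatty acids, by 2.10 (SE 0.41, edgeR adjusted p = 0.00211). At ID4 3 rose and 2 fell against NUL, beside 4.25% of all genes. Lpl rose by 1.43 on the log2 scale (SE 0.29, edgeR adjusted p = 0.00547). Scd1 fell by 3.89 (SE 0.42, edgeR adjusted p = 1.05e-05) and Fasn, the fatty acid synthase, by 1.88 (SE 0.50, edgeR adjusted p = 0.0355). Scd1 and Fasn are also targets of SREBP1, the factor for fatty acid synthesis. From ID2 to ID4 Pltp, which moves phospholipid between lipoproteins, fell by 1.16 on the log2 scale (SE 0.22, edgeR adjusted p = 0.00673), and by 1.09 without ID2_31 (adjusted p = 0.0450).

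Macrophage markers moved with Abcg1 at its 4 called steps, and with Mylip at its 2, LAC against NUL and LAC to ID2. They also moved at the called steps of Abcg8 (LAC to ID2) and of Scarb1 (LAC to ID2 and ID4 against NUL). At the other called step of Scarb1, ID4 to ID6, edgeR and DESeq2 called 0 of these markers, beside 8.53% of all genes in edgeR. There 1 marker had an unadjusted edgeR p under 0.05. Of 12 Kupffer cell and macrophage markers, none of them at 0 in all libraries, 8 fell in LAC against NUL, 8 rose from LAC to ID2, 8 rose at ID4 against NUL and 5 fell from ID6 to ID8, where 11.2%, 16.1%, 4.25% and 4.12% of all genes were called. Where edgeR did not call Abcg1, 8 markers were higher from ID2 to ID4 and 5 at ID6 against NUL. Beside them 1.49% and 1.08% of all genes were called. Abcg1 was itself higher without overlap in both, by 0.49 on the log2 scale (SE 0.15, edgeR adjusted p = 0.0849) and 0.44 (adjusted p = 0.0768). DESeq2 called Abcg1 in both (adjusted p = 0.0373 and 0.0277). Without ID2_31 the ID2 to ID4 value of Abcg1 was 0.49 (edgeR adjusted p = 0.255), and the marker count at that step was 1. Without ID2_31, 8 markers rose from LAC to ID2. Mylip was not called at ID4 against NUL (log2 fold change 0.25, edgeR adjusted p = 0.293) or from ID6 to ID8 (-0.09, adjusted p = 0.741). The summed TPM of the 12 markers was 468 to 553 in NUL, 285 to 384 in LAC, 417 to 489 at ID2, 648 to 770 at ID4, 620 to 826 at ID6, 451 to 602 at ID8 and 469 to 556 at REG. Genes most alike to Abcg1 were Igsf6 (Pearson r 0.906), Kcnj10 (0.904) and Arhgap30 (0.899). Markers of recruited myeloid cells summed to 53.3 to 67.2 TPM in LAC and 97.7 to 122 TPM in NUL, and those of sinusoidal endothelium to 147 to 167 TPM and 208 to 217 TPM. Markers of stellate cells summed to 92.0 to 100.3 TPM in LAC and 136 to 171 TPM in NUL, those of bile duct to 19.5 to 26.9 TPM and 33.0 to 47.8 TPM, and those of lymphocytes to 1.56 to 3.33 TPM and 5.25 to 7.69 TPM. In these 6 lists the LAC sums lay below the NUL sums, while those of erythroid markers were 2253 to 3336 TPM in LAC and 1144 to 2408 TPM in NUL. From LAC to ID2 edgeR called 5 of 8 endothelial, 3 of 8 recruited myeloid, 2 of 8 stellate and 1 of 6 bile duct markers, all higher. It called 0 of 9 lymphocyte and 0 of 5 tested erythroid markers, beside 16.1% of all genes. Without ID2_31 the endothelial, recruited myeloid, stellate and bile duct counts were 3, 1, 1 and 1. The part of these cells in the values of Abcg1, Mylip, Abcg8, Scarb1 and the other genes was not tested. Between the 2 genes the Pearson r was 0.742 over the 27 libraries, which share stages and depth.

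**Figure D4:**
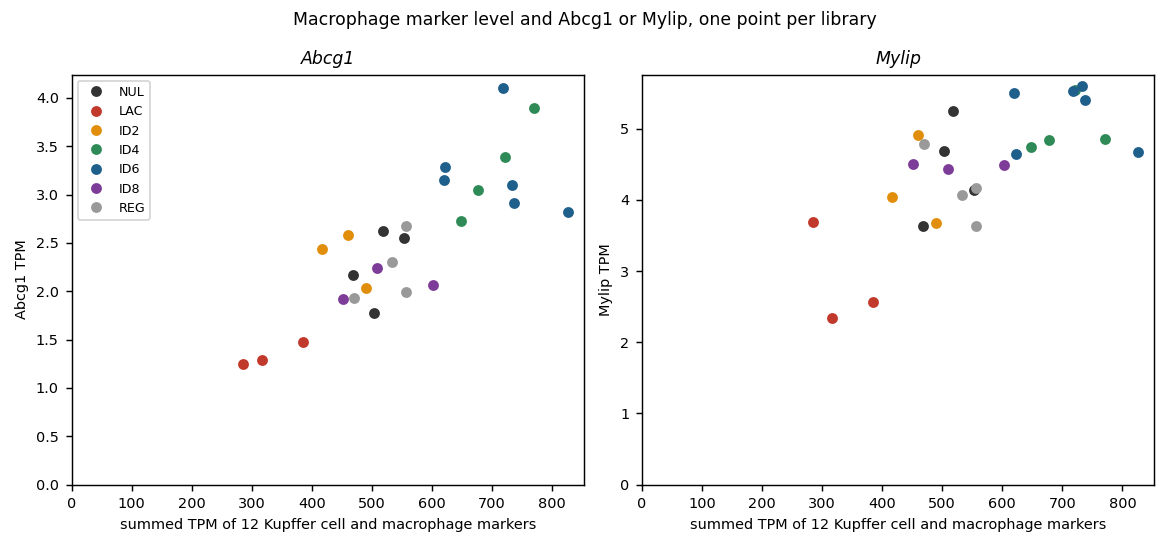
TPM of Abcg1 (left) and Mylip (right) on the vertical axes against the summed TPM of 12 Kupffer cell and macrophage markers on the horizontal axes, 1 point per library, coloured by stage. The 3 LAC libraries have the lowest marker sums, 285 to 384 TPM, and the lowest Abcg1.

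For the remaining genes the nearest courses were those of Slc6a6 for Abca1 (0.827), Slc25a47 for Nr1h2 (0.809), Rab8a for Nr1h3 (0.871), Mug1 for Mylip (0.849), Gramd3 for Lpcat3 (0.793) and Ces1e for Soat2 (0.753), each a Pearson r over 27 libraries given as a description. Per length, Scarb1 and Nr1h3 had the highest group means at each stage, from 77.0 to 147 TPM and from 79.7 to 102 TPM, with Scarb1 above Nr1h3 at ID2, ID4 and ID6 and Nr1h3 above Scarb1 at the other 4. The ranges of group means of Abcg5 (43.5 to 86.3 TPM), Abcg8 (27.8 to 62.0 TPM), Lpcat3 (39.8 to 64.0 TPM) and Nr1h2 (36.5 to 45.8 TPM) overlapped. Soat2 lay at 20.2 to 30.6 TPM and Abca1 at 18.9 to 28.3 TPM. Mylip, at 2.86 to 5.23 TPM, and Abcg1 were the least abundant. At 4 weeks after weaning the 10 genes had a median log2 fold change of 0.00 against NUL, and each gene's REG libraries overlapped those of NUL.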

How the data were processed

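Whole-liver RNA was extracted with Trizol and made into NEBNext Ultra libraries, per the labels. STAR 2.6.1a, RSEM 1.3.1 and the builds mm10 and GRCm38 are named in the submitters' processing notes. The gene annotation, trimming and use of strand are not given in the sources used here. The authors made the deposited expected counts per gene by aligning reads and estimating each gene's share of them, with RSEM named in the processing notes and the unit given per the file headers. The deposited TPM were scaled by the authors for transcript length and library size, per the file headers. TPM served to compare levels between genes and for marker sums. Symbols came from GENCODE M21 and matched 51633 of 51826 identifiers. These counts, rounded to integers, were filtered by group with filterByExpr (16428 genes kept, with at least 99.978% of counts), scaled by TMM and tested with edgeR 4.0.16 (R 4.3.3) in 1 quasi-likelihood fit over the 7 groups, with Benjamini-Hochberg adjusted p under 0.05 called. The biological coefficient of variation was 0.19. SE was taken as the log2 fold change over the root of F, and approximate intervals as 1.96 SE. The procedure was tested on simulated data. No pair of libraries within a group agreed within sampling noise: the smallest chi-square per gene over 42 pairs was 45.7. Alternatives were other size factors, no low-count filter, covariates for title number, sequencing runs and 14 clock genes (first component, 57.9% of their variance), the 2 groups alone, limma 3.58.1 on log2(TPM + 1), DESeq2 1.42.0 and each animal left out. The 10 genes, the pathway and marker lists and the tests were chosen with earlier results of these data known. From each pathway list the rule allowed up to 3 called genes per direction without overlap and with the largest fold change. Likeness used 10550 genes whose mean log2 CPM was 1 or more. Promoter sequences are from RefSeq on GRCm38.p6, windows of 250 bases before to 50 after a start.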

Additional observations from a re-analysis of the deposited data

Results flagged for a closer look

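Of 40 gene and group pairs with 4 to 10 libraries, 3 held a library far from the others, where chance gives about 1 in 20. Abcg5 in NUL_221 was at 62.5 CPM, below the 90.3 to 96.1 CPM of the other NUL libraries. Abcg8 in the same library was at 74.5 CPM, below 106 to 111 CPM. Without NUL_221 the ID6 against NUL log2 fold change was 0.58 for Abcg5 (edgeR adjusted p = 0.369) and 0.36 for Abcg8 (edgeR adjusted p = 0.643). Abcg1 in ID6_232 was at 10.2 CPM, above the 7.61 to 8.50 CPM of the other ID6 libraries.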

How the results depend on the processing

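No called log2 fold change of the 10 genes changed sign in any of the fits run. With an animal left out, 25 of 92 values of called fold changes lost the call, and of 768 values of uncalled ones 1 gained a call and 46 changed sign. Under the other settings 18 of 96 lost it, and of 784 uncalled 9 gained one and 29 changed sign. Without ID8_14, Abcg5 at ID8 against NUL went from 0.39 to -0.09 on the log2 scale, and with the clock covariate Abca1 at ID2 against NUL went from 0.19 to -0.29. Of the all-stage tests, 16 of 270 lost a call and 4 gained one with an animal left out, and 5 of 70 lost and 2 gained one under other settings. The number of the 10 genes called at ID4 against NUL was 1 with limma, and at ID6 against NUL 1 with DESeq2. In LAC against NUL it was 3 with DESeq2, which added Abcg8, and with the 2 groups alone Abcg8 was gained and Mylip lost. From LAC to ID2 the 2 groups alone added Abcg5 and lost Mylip. From LAC to ID2 it was 2 with the title number and 2 with the clock covariate, the latter being Abcg1, higher, and Abca1, lower, the second not among the 4 called without it. From ID2 to ID4 it was 1 with the 2 groups alone and 1 with DESeq2, and from ID4 to ID6 it was 1 with the title number and 3 with the clock covariate, which added Abca1. From ID6 to ID8 it was 0 without the low-count filter and with the title number, and 1 with the sequencing run, the clock covariate, the 2 groups alone and limma. With the clock covariate the 1 was Abca1, lower, and both Abcg1 and Lpcat3 were lost. With animals left out the counts ranged from 4 to 8 over all stages, 1 to 2 in LAC against NUL, 1 to 2 at ID4 against NUL, 2 to 4 from LAC to ID2 and 0 to 2 from ID6 to ID8. The cause was not tested. Over all genes, the title number covariate took the ID6 to ID8 calls from 677 to 6, ID8 against NUL from 82 to 7, ID2 against NUL from 532 to 108 and all-stage calls from 4431 to 3239, and the clock covariate took ID2 against NUL to 32. No paired analysis was possible because the groups share no replicate number. Groups of 3 to 6 animals limit the precision, and the depth of 41120650 estimated reads or more left at least 205 reads for Abcg1 in each library.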
